A study of Homo sapiens
Mus musculus with 17 samples.

Results

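The genes described here are 7 mouse genes that report on signalling downstream of receptor tyrosine kinases: Spry1, Spry2, Spry4, Spred1, Spred2, Dusp6 and Etv5. They were chosen by name out of the 23337 mouse gene symbols of the study, for their known place in the pathway. Earlier results of these data were known when they were chosen. All 7 were among the 11831 mouse genes with enough signal to be tested. They were measured in 17 tumours grown in mice from the bladder cancer line VM-CUB-1, which is of human origin and which the study describes as resistant to nintedanib. In such a xenograft the cancer cells are human and the vessels, fibroblasts and immune cells are mouse. Reads mapped to the mouse genome are therefore taken to stand for the host tissue of the tumour. Human reads that also map to the mouse genome are an exception, for which values are given further below.

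All tumours were in athymic nude mice (Hsd:Athymic Nude-Foxn1nu), which lack a thymus and have few mature T cells, and all were taken after 7 days of treatment. The combination group (4 libraries) received alpelisib at 25 mg/kg and nintedanib at 40 mg/kg. The nintedanib group (5 libraries) received nintedanib at 40 mg/kg, and the sample titles call 3 of these tumours responders and 2 non-responders, whereas the description of the series gives the opposite numbers; the titles were followed. The alpelisib group (4 libraries) received alpelisib at 25 mg/kg, and the vehicle group (4 libraries) received 0.5% methylcellulose with 0.1% Tween 80. Nintedanib inhibits the receptors for VEGF, PDGF and FGF, and alpelisib (BYL719) inhibits the alpha form of PI3-kinase. Libraries are numbered here as in the sample titles. Whether each library comes from its own mouse is not given in the labels, and the p-values measure the spread between libraries.

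Binding of a growth factor to its receptor tyrosine kinase switches on Ras and, through Raf and MEK, the kinase ERK. ERK activity induces a set of genes whose products damp the same pathway. Sprouty proteins (Spry1, Spry2, Spry4) and the related Spred proteins (Spred1, Spred2) act on the steps between the receptor and Raf, Dusp6 is a phosphatase that removes the activating phosphates from ERK, and Etv5 is an ETS transcription factor induced by FGF and ERK signalling. Levels of these transcripts are therefore widely used as a readout of the pathway. In growing vessels Sprouty genes are expressed by endothelial cells, which depend on VEGF receptors.

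Values are the authors' normalized counts, which are read counts divided by a factor per library. Mouse reads came to between 2271764 and 7438823 per library, with a median of 5084126, and human reads to between 7429753 and 25654879, with a median of 20312801. The ribosomal transcript Rn45s together with Lars2 took between 1.73% and 72.9% of the mouse reads, with a median of 13.7%, and in 4 libraries (Combination 1, Combination 4, Alpelisib 3 and Vehicle 3) they took over 40%. Endothelial, fibroblast, macrophage and pericyte markers were present in every library, while Cd3e, Cd3g and Cd3d of T cells and Cd79a and Ms4a1 of B cells were at 0 in at least 1 library. In such bulk samples fewer cells of a type and less RNA per cell cannot be told apart.

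Of the 7 genes, Spry4 alone passed the threshold of an adjusted p under 0.05 in any of the 9 comparisons made with limma. Its fold against vehicle was 0.178 in the combination and 0.225 in the nintedanib tumours. Spry1 was higher in every tumour that received alpelisib than in every vehicle tumour, by 2.01-fold in the combination and 2.23-fold in the alpelisib tumours, but did not pass the test. All combination tumours lay above all vehicle tumours for 4.89% of all mouse genes, and all alpelisib tumours for 4.18%. Spry2 was 1.56-fold higher in alpelisib than in vehicle tumours, also without passing. Spred1, Spred2, Dusp6 and Etv5 passed in no comparison.

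**Figure D1:**
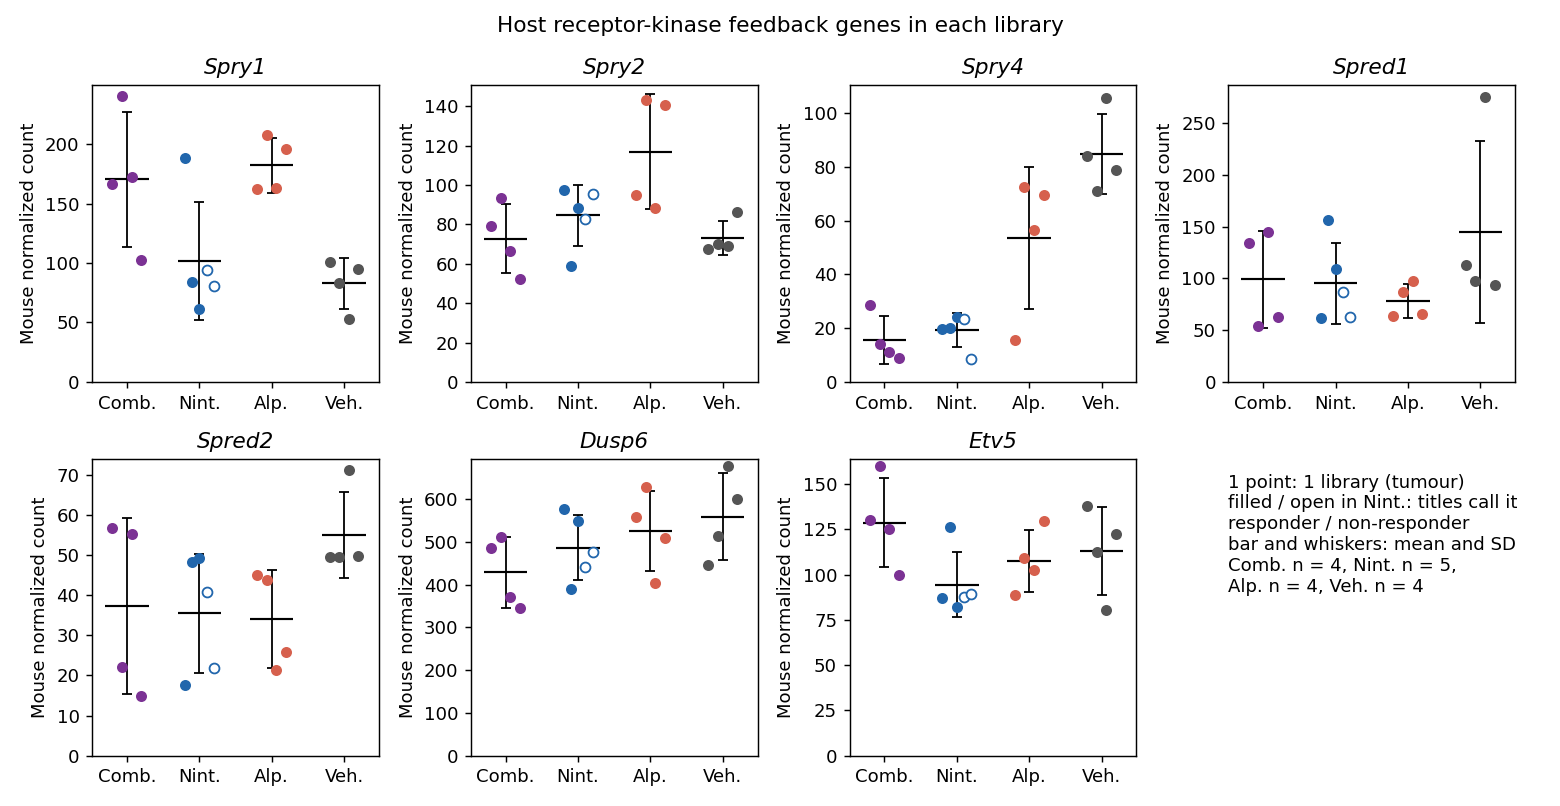
Mouse normalized counts of the 7 genes, 1 point per library, by group from left to right: combination (n = 4), nintedanib (n = 5, filled for responders and open for non-responders), alpelisib (n = 4) and vehicle (n = 4), with the mean as a bar and the SD as whiskers. Spry4 lies between 8.47 and 28.8 in the 9 libraries given nintedanib and between 71.1 and 106 in the vehicle libraries, and Spry1 lies above every vehicle library in the 8 libraries given alpelisib. Of all mouse genes, 4.74% are lower than vehicle without overlap in combination and 1.52% in nintedanib libraries. Higher without overlap are 4.89% in combination and 4.18% in alpelisib libraries.

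Spry4, an inhibitor of signalling between receptor tyrosine kinases and Ras, had 28.8, 14.1, 11.1 and 8.73 normalized counts in the combination tumours. It had 19.6, 20.1 and 24.2 in the nintedanib responders and 23.5 and 8.47 in the nintedanib non-responders. The alpelisib tumours had 15.6, 72.6, 56.6 and 69.6, and the vehicle tumours 84.1, 71.1, 106 and 78.9. Every combination and every nintedanib tumour was thus below every vehicle tumour, a pattern that 4.74% of all mouse genes showed for the combination and 1.52% for nintedanib. The alpelisib tumours were split, with 3 at 56.6 or more and Alpelisib 1 within the range of the nintedanib tumours. Means were 15.7 ± 9.02 in combination, 19.2 ± 6.31 in nintedanib, 53.6 ± 26.3 in alpelisib and 84.9 ± 14.8 in vehicle tumours (SD, n = 4, 5, 4 and 4). The gene is not highly expressed: these values rest on 7 to 31 reads per combination library, 7 to 35 per nintedanib library, 10 to 86 per alpelisib library and 46 to 173 per vehicle library.

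On the scale of log2(normalized count + 1), Spry4 had a difference between combination and vehicle tumours of −2.49 ± 0.44 (SE), a fold of 0.178 with an adjusted p of 0.0175 (limma, over all 11831 mouse genes). It was 1 of the 7 genes to pass there, in a comparison in which 0.778% of all mouse genes passed. Nintedanib against vehicle gave −2.15 ± 0.42, a fold of 0.225 with an adjusted p of 0.0466, again for 1 of the 7 genes, where 0.152% of all mouse genes passed. Both comparisons use the same 4 vehicle libraries. The adjusted p of nintedanib against vehicle lay close to 0.05: it ranged from 0.00397 to 0.17 when single libraries were left out and stayed under the threshold in 3 of those 17 fits (without Combination 1, Nintedanib non-responder 1 or Alpelisib 1). It was 0.0566 with TMM scaling, 0.0516 with a pseudocount of 0.5, 0.102 without a filter on low values, 0.0677 with the Rn45s and Lars2 share as a covariate and 0.228 without the 4 libraries rich in those transcripts, against 0.036 in edgeR, 0.0267 in limma-voom and 6.12e-05 in DESeq2. Combination against vehicle stayed under it in 14 of 17, and lost it without Combination 3, Combination 4 or Vehicle 4, and also without the 4 libraries rich in Rn45s and Lars2 (adjusted p = 0.104).

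The design also allows the effect of nintedanib to be read in tumours that all received alpelisib. Combination against alpelisib shares no library with nintedanib against vehicle, and Spry4 had a difference there of −1.64 ± 0.44, a fold of 0.321, with an adjusted p of 0.453. None of the 7 genes passed in limma, where 0.00845% of all mouse genes did, 2 of the 7 had an unadjusted p under 0.05, and DESeq2 called Spry4 with an adjusted p of 0.03. That comparison turned on Alpelisib 1: without it the difference was −2.14, with an adjusted p of 0.0229.

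Over both pairs together, the 9 tumours exposed to nintedanib had 8.47 to 28.8 normalized counts of Spry4, with a median of 19.6, against 15.6 to 106 with a median of 71.8 in the 8 unexposed tumours. In 7 of the 8 unexposed tumours the value was above every exposed tumour, the exception being Alpelisib 1. The share of all mouse genes with such a pattern was not computed. The difference was −1.90 ± 0.31, with a 95% interval from −2.54 to −1.26 and an adjusted p of 0.00546 (limma), in a comparison that 0.6% of all mouse genes passed. It stayed under the threshold whichever single library was left out, with adjusted p-values between 0.000108 and 0.0221 over the 17 fits. Without the 4 libraries rich in Rn45s and Lars2 the difference was −1.88 and the adjusted p 0.134.

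Adding alpelisib to nintedanib was not followed by a further detectable difference in Spry4: combination against nintedanib gave −0.33 ± 0.42, with a 95% interval from −1.22 to 0.55 and an adjusted p of 0.908. Alpelisib alone against vehicle gave −0.85 ± 0.44 and an adjusted p of 0.491. The departure from additivity (combination minus alpelisib, less nintedanib minus vehicle) was 0.52 ± 0.61 with an adjusted p of 0.861, and without Vehicle 3 and Alpelisib 1, a setting chosen after the values were seen, it was −0.10. The nintedanib responders and non-responders overlapped in Spry4, and their difference was 0.54 ± 0.57 with an adjusted p of 1.

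**Figure D2:**
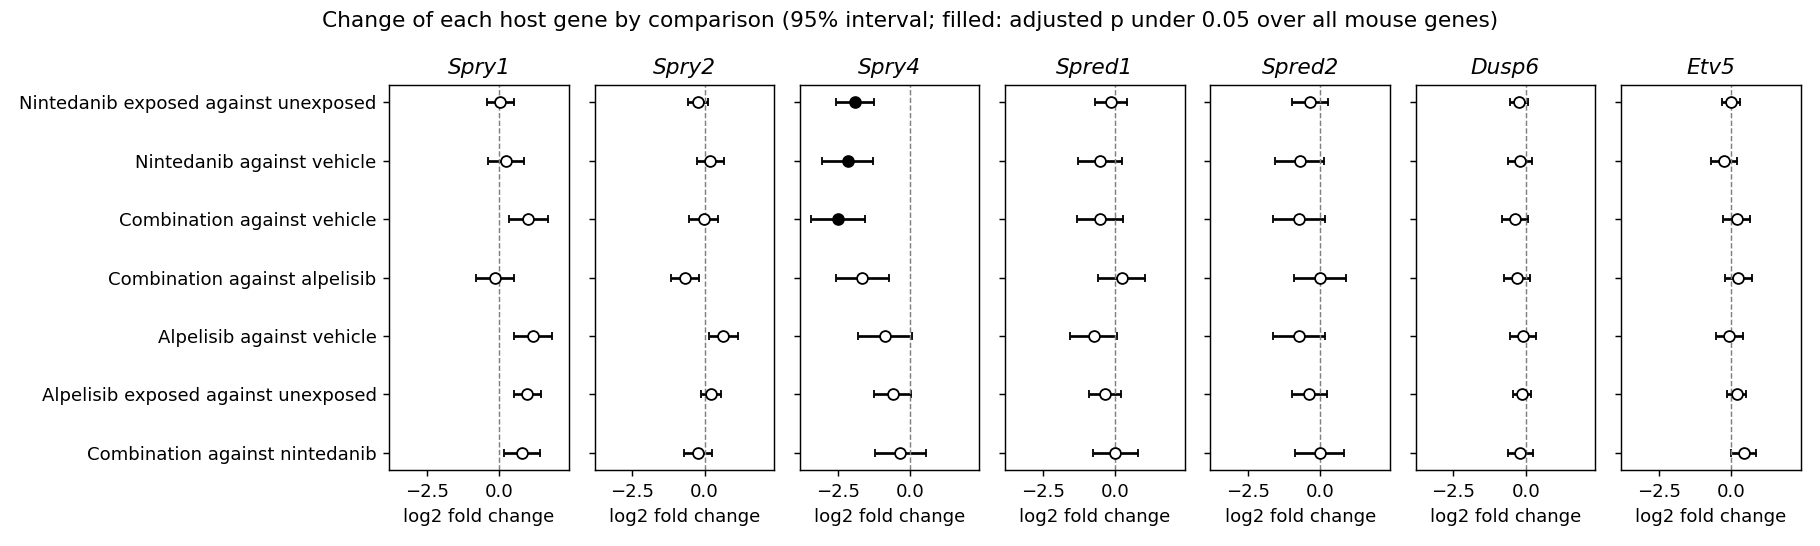
Log2 fold change of each gene in 7 comparisons, with its 95% interval, filled where the adjusted p over all mouse genes is under 0.05. The 3 filled points are Spry4 in nintedanib against vehicle (−2.15), in combination against vehicle (−2.49) and in nintedanib exposed against unexposed (−1.90), and 4 Spry1 intervals (combination against vehicle, alpelisib against vehicle, alpelisib exposed against unexposed and combination against nintedanib) lie above 0 without passing.

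Endothelial transcripts were lower in the same tumours as Spry4. All 18 endothelial markers were measured, none was at 0 in any library, and all 18 had a negative difference in nintedanib exposed against unexposed tumours, with 5 passing (Pecam1, Cdh5, Tie1, Cldn5 and Mmrn2) and a median of −0.81, against a median of 0.0018 over all mouse genes. Their summed level ran from 2619 to 3943 in combination, 2583 to 4180 in nintedanib, 3100 to 6617 in alpelisib and 4729 to 7000 in vehicle tumours, and the 3100 was Alpelisib 1, the tumour of that group that was low in Spry4. Of 12 markers of tip cells, the endothelial cells that lead a growing sprout, 5 passed in the same comparison, all lower (Dll4, Apln, Angpt2, Nid2 and Kcne3), and the median was −1.14. The share of all mouse genes that passed there was 0.6%. Of these 12, 10 were negative and 2 positive, and 1 of the positive ones was Pgf, at 0.89 ± 0.35 (limma, adjusted p = 0.392). The sum of the 12 tip cell markers ran from 2859 to 5709 in combination, 3345 to 5225 in nintedanib, 4669 to 8711 in alpelisib and 5131 to 8827 in vehicle tumours. Among 12 pericyte and smooth muscle markers, 9 were negative and 3 positive, with a median of −0.57. Of these, 1 passed, Mcam, which was lower and which endothelial cells express too. Without the 4 libraries rich in Rn45s and Lars2, none of the 18 endothelial and none of the 12 tip cell markers passed. Over the 17 fits that left out 1 library, 4 to 9 endothelial and 4 to 7 tip cell markers passed, the most in both lists without Alpelisib 1. Apart from Pgf, these marker genes are named because they passed.

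Fibroblast and macrophage markers had differences of the opposite sign. All 12 fibroblast markers were positive in nintedanib exposed against unexposed tumours, with a median of 0.46, and so were all 11 macrophage markers tested, with a median of 0.51, but none of either list passed in limma, edgeR or limma-voom. At an unadjusted p under 0.05 in limma there were 3 fibroblast and 6 macrophage markers, and DESeq2 called 0 and 1 (Cd68). The fibroblast sum ran from 56720 to 109302 in combination, 43874 to 118599 in nintedanib, 29366 to 92233 in alpelisib and 38340 to 110681 in vehicle tumours. The macrophage sum ran from 13743 to 25128 in combination, 10559 to 21117 in nintedanib, 11285 to 15634 in alpelisib and 9555 to 16387 in vehicle tumours. Their part in the Spry4 result was not tested.

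Spry4 was also set against the endothelial sum. Per 1000 normalized counts of the 18 markers, it stood at 5.30 ± 3.81 in combination, 5.69 ± 1.64 in nintedanib, 9.24 ± 3.15 in alpelisib and 14.5 ± 0.773 in vehicle tumours (SD, n = 4, 5, 4 and 4). The highest combination value, 11 in Combination 1, and the highest nintedanib value, 7.26, were both below the lowest vehicle value, 13.4. All 4 alpelisib tumours, between 5.02 and 12.4, were also below it. How many of all mouse genes would separate in this way over the same sum was not computed. The ratio rests on as few as 7 Spry4 reads in a library. When the mean log2 level of the 18 markers entered the fit as a covariate, the nintedanib exposed against unexposed difference of Spry4 was −0.82 ± 0.41 with an adjusted p of 0.94, and none of the 11831 mouse genes passed. The part of endothelial abundance in the Spry4 result was not tested beyond these values.

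**Figure D3:**
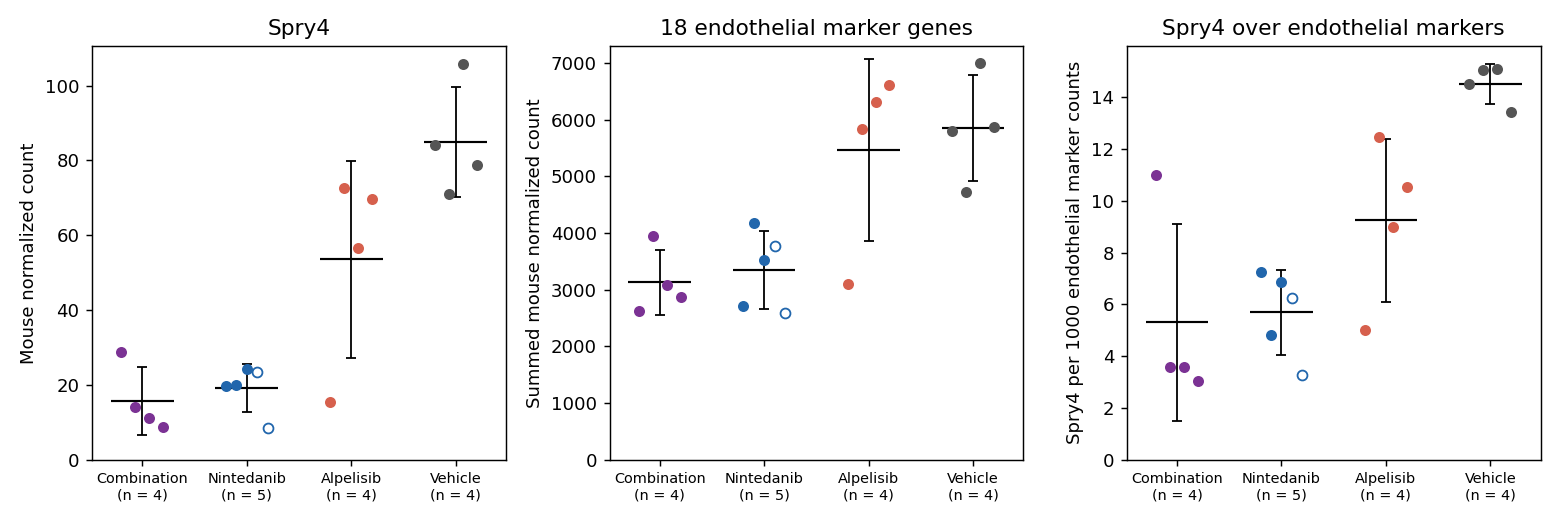
Spry4, the summed level of 18 endothelial markers, and Spry4 per 1000 counts of that sum, 1 point per library, with the mean and SD of each group (combination n = 4, nintedanib n = 5, alpelisib n = 4, vehicle n = 4). The ratio averages 5.30 in combination, 5.69 in nintedanib, 9.24 in alpelisib and 14.5 in vehicle tumours. No treated tumour reaches the lowest vehicle value of 13.4, a pattern whose share among all mouse genes was not computed.

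The 2 genes most like Spry4 over the 17 libraries were also vascular. Among 7447 mouse genes averaging 50 normalized counts or more, Apln, the apelin ligand made by tip cells, had the highest Pearson correlation with it (r = 0.95), followed by Notch4, a Notch receptor of endothelial cells (r = 0.92). Within groups, after the group means were taken out, r was 0.85 for Apln and 0.76 for Notch4. Apln averaged 82.6 in combination, 118 in nintedanib, 413 in alpelisib and 479 in vehicle tumours, and its difference with nintedanib exposure was −2.09 ± 0.29 (adjusted p = 0.00142). Notch4 averaged 101 in combination, 104 in nintedanib, 233 in alpelisib and 269 in vehicle tumours, with a difference of −1.25 ± 0.21 (adjusted p = 0.00586). The libraries share their treatment, so these correlations describe the pattern and carry no p. Both genes were picked for their likeness to Spry4, which itself differed with nintedanib exposure in these libraries. Their adjusted p-values with exposure are therefore no separate evidence.

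Spry1, a Sprouty relative of Spry4, had 166, 240, 172 and 102 normalized counts in the combination tumours and 162, 208, 163 and 196 in the alpelisib tumours. The nintedanib responders had 188, 84.3 and 61.6, the nintedanib non-responders 94.0 and 81.0, and the vehicle tumours 101, 83.2, 52.8 and 94.8. Neither group given alpelisib overlapped with vehicle, although the lowest combination tumour, at 102, came close to the highest vehicle tumour, at 101. Means were 170 ± 56.5 in combination, 102 ± 49.7 in nintedanib, 182 ± 23.4 in alpelisib and 82.9 ± 21.3 in vehicle tumours (SD, n = 4, 5, 4 and 4).

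Alpelisib against vehicle gave a Spry1 difference of 1.16 ± 0.32, a fold of 2.23, with an adjusted p of 0.256 (limma). In limma 0% of all mouse genes and none of the 7 passed there, with 2 of the 7 at an unadjusted p under 0.05 (Spry1 and Spry2) and none called by edgeR, limma-voom or DESeq2. Spry1 and Spry2 were 2 of the 7 genes with every alpelisib tumour above every vehicle tumour, a pattern that 4.18% of all mouse genes showed. Combination against vehicle gave 1.01 ± 0.32 for Spry1, a fold of 2.01, with an adjusted p of 0.119, and Spry1 was the 1 gene of the 7 with every combination tumour above every vehicle tumour, as were 4.89% of all mouse genes. Combination against nintedanib gave 0.78 ± 0.30 with an adjusted p of 0.62, and 0% of all mouse genes passed that comparison in limma. Of the 7, Spry1 alone had an unadjusted p under 0.05 there, and none was called by limma, edgeR, limma-voom or DESeq2.

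The 8 tumours that received alpelisib had 102 to 240 normalized counts of Spry1, with a median of 169, against 52.8 to 188 with a median of 84.3 in the 9 that did not. In 8 of those 9 the value was below every alpelisib-exposed tumour, the exception being Nintedanib responder 1 at 188. How many of all mouse genes separate as well by alpelisib exposure was not computed. The comparison of these 8 and 9 libraries was added after the data were seen. It gave 0.97 ± 0.22, with a 95% interval from 0.51 to 1.43, an unadjusted p of 0.000301 and an adjusted p of 0.0826 in limma, where 0.186% of all mouse genes passed. DESeq2 gave an adjusted p of 0.00639, and limma gave 0.0346 with the Rn45s and Lars2 share as a covariate. Of the 17 limma fits that left out 1 library, 1 passed, at 0.027 without Nintedanib responder 1. The highest adjusted p of these fits was 0.178, without Alpelisib 4. With the replicate number as a block, without a filter on low values or with human carry-over subtracted, none of all mouse genes passed. With nintedanib exposure the difference of Spry1 was 0.04 ± 0.22, with a 95% interval from −0.42 to 0.49 (adjusted p = 0.974).

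Krt17 and Krt19, keratins of epithelial cells, rose in the mouse reads with alpelisib exposure. Of 20 keratin and epithelial genes, listed to follow carry-over of tumour reads, all were in the mouse table and 17 were tested. In alpelisib exposed against unexposed tumours 15 of the 17 were positive and those 2 passed, both higher, where 0.186% of all mouse genes passed. Krt19 had 3023 mouse against 1199501 human reads over the 17 libraries, and Krt17 had 534343 against 3717981. Per library, Krt17 stayed between 12.3 and 15.8 mouse reads per 100 human reads, and Krt19 lay between 0.0960 and 0.546. Neither passed with human carry-over subtracted, with the replicate number as a block or without a filter on low values. When single libraries were left out, neither passed in 11 of 17 fits, and both did in the fits without Combination 1, Nintedanib responder 1, Vehicle 1 or Vehicle 3. The summed level ran from 81155 to 247904 in combination, 62172 to 94003 in nintedanib, 93060 to 160729 in alpelisib and 37197 to 65855 in vehicle tumours, and Krt18, Lamb3 and Cldn4 were at 0 in at least 1 library. Their part in the Spry1 result was not tested. No endothelial marker passed in that comparison in limma, with 12 of 18 negative and a median of −0.12. Pnrc1 (r = 0.87) and Gabarapl1 (r = 0.85), a gene of the autophagy machinery, were the 2 genes most like Spry1 over the 17 libraries.

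Spry2, the third Sprouty gene, had 79.0, 93.5, 66.4 and 52.4 normalized counts in the combination tumours. The nintedanib responders had 97.5, 59.1 and 88.1 and the non-responders 82.9 and 95.5. The alpelisib tumours had 94.9, 143, 88.4 and 141, and the vehicle tumours 67.5, 69.8, 68.9 and 86.2. The lowest alpelisib tumour was just above the highest vehicle tumour, while combination and vehicle tumours overlapped fully. Alpelisib against vehicle gave 0.64 ± 0.24 with an adjusted p of 0.378, and combination against alpelisib −0.67 ± 0.24 with an adjusted p of 0.658. The departure from additivity was −0.87 ± 0.33, with an unadjusted p of 0.0159 and an adjusted p of 0.84, and 0% of all mouse genes passed it in limma. None of the 7 genes was called there by edgeR, limma-voom or DESeq2, and Spry2 alone had an unadjusted p under 0.05. Rap2b (r = 0.87), a small GTPase, and Wdr61 (r = 0.82) were most like it.

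Spred1 and Spred2, the Sprouty-related inhibitors of Ras activation, had their highest values in the same tumour, Vehicle 3, the library in which Rn45s and Lars2 took 72.9% of mouse reads. Spred1 had 134, 54.3, 145 and 62.3 normalized counts in the combination tumours, 61.6, 156 and 109 in the nintedanib responders, 86.6 and 62.9 in the non-responders, 63.8, 86.5, 97.9 and 65.5 in the alpelisib tumours, and 113, 97.1, 276 and 93.5 in the vehicle tumours. The groups overlapped throughout. Its differences were −0.52 ± 0.38 in combination, −0.53 ± 0.36 in nintedanib and −0.74 ± 0.38 in alpelisib against vehicle, with adjusted p-values of 0.522, 0.617 and 0.49. Fam172a (r = 0.97) and D15Ertd621e (r = 0.95) were most like Spred1. At the carry-over ratio given further below, human reads would account for 13.3% of the mouse reads of Spred1.

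Spred2 had 56.7, 22.1, 55.4 and 15.0 normalized counts in the combination tumours, 17.6, 48.2 and 49.1 in the nintedanib responders, 40.8 and 21.8 in the non-responders, 45.1, 43.7, 21.2 and 25.9 in the alpelisib tumours, and 49.6, 49.5, 71.2 and 49.7 in the vehicle tumours. Every nintedanib tumour was below every vehicle tumour, though by a narrow gap of 49.1 to 49.5, and so was every alpelisib tumour. Spred2 and Spry4 were the genes among the 7 that were lower without overlap in nintedanib against vehicle, as were 1.52% of all mouse genes. In alpelisib against vehicle Spred2 was the 1 gene lower without overlap, as were 3.03% of all mouse genes. The differences were −0.74 ± 0.43 in combination, −0.71 ± 0.40 in nintedanib and −0.73 ± 0.43 in alpelisib against vehicle, with adjusted p-values of 0.402, 0.591 and 0.516. The same 4 vehicle libraries serve all 3 comparisons. Cdc23 (r = 0.96), a subunit of the anaphase-promoting complex, and Dennd5a (r = 0.96) were most like Spred2. At the carry-over ratio given further below, human reads would account for 41.3% of the mouse reads of Spred2.

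Dusp6, the ERK phosphatase, rested on the most reads of the 7 genes, between 277 and 1314 per library. It had 485, 511, 371 and 345 normalized counts in the combination tumours, 576, 390 and 548 in the nintedanib responders, 440 and 476 in the non-responders, 559, 629, 404 and 509 in the alpelisib tumours, and 445, 514, 677 and 599 in the vehicle tumours. The groups overlapped in every comparison. Combination against vehicle gave −0.39 ± 0.21, with a 95% interval from −0.83 to 0.06 and an adjusted p of 0.381. With nintedanib exposure the difference was −0.25 ± 0.15, with a 95% interval from −0.55 to 0.06 and an adjusted p of 0.683, so that a fall as large as that of Spry4 lies outside the interval. Gon4l (r = 0.89) and Slmo2 (r = 0.83) were most like it.

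Etv5, the transcription factor of the group, had 130.1, 159.9, 125 and 99.7 normalized counts in the combination tumours, 87.4, 126 and 81.9 in the nintedanib responders, 87.8 and 89.5 in the non-responders, 88.7, 109, 103 and 129 in the alpelisib tumours, and 138, 112, 80.4 and 123 in the vehicle tumours. Values of all groups overlapped. With nintedanib exposure the difference was 0.0012 ± 0.15, with a 95% interval from −0.32 to 0.32, and an adjusted p of 0.998. The comparison with the smallest unadjusted p was combination against nintedanib, 0.44 ± 0.21, with an unadjusted p of 0.0501 and an adjusted p of 0.712. Cd81 (r = 0.81) and Elp3 (r = 0.78) were most like Etv5.

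Among themselves the 7 genes did not vary as 1 group. Over the 17 libraries the highest correlation between any 2 of them was that of Spred1 and Spred2 (r = 0.76), and Dusp6 correlated with Spry2 at 0.56 and with Spry4 at 0.51. Spry4 and Spry1 correlated at −0.15. After the group means were taken out, Dusp6 and Spry2 stood at 0.76, Spred1 and Spred2 at 0.71 and Dusp6 and Spry4 at 0.18. The median difference of the 7 genes with nintedanib exposure was −0.24, against 0.0018 over all mouse genes, with 5 negative and 2 positive and only Spry4 past the threshold. The responders and non-responders of the nintedanib group did not differ past the threshold in any of the 7 genes in limma, edgeR, limma-voom or DESeq2, none had an unadjusted p under 0.05, and 0% of all mouse genes passed in limma.

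The receptors that nintedanib blocks were the next step up the pathway. Of 9, all but Fgfr4 were tested, and in nintedanib exposed against unexposed tumours 2 passed, both VEGF receptors and both lower. In that comparison 0.6% of all mouse genes passed. Flt4, the receptor for VEGF-C and VEGF-D, averaged 35.4 ± 11.5 in combination, 32.0 ± 9.79 in nintedanib, 93.4 ± 38.4 in alpelisib and 150.0 ± 84.2 in vehicle tumours (SD, n = 4, 5, 4 and 4), a difference of −1.72 ± 0.25 with an adjusted p of 0.00201. Flt1, a VEGF receptor that also acts as a decoy, averaged 87.5 ± 38.0 in combination, 91.3 ± 25.5 in nintedanib, 192 ± 42.7 in alpelisib and 247 ± 172 in vehicle tumours, a difference of −1.23 ± 0.25 with an adjusted p of 0.0273. Kdr, the main VEGF receptor of endothelial cells, gave −1.02 ± 0.29 with an adjusted p of 0.138. The PDGF receptors Pdgfra (0.50 ± 0.26) and Pdgfrb (0.11 ± 0.20) and the FGF receptors Fgfr1 (0.31 ± 0.17), Fgfr2 (−0.29 ± 0.30) and Fgfr3 (−0.50 ± 0.38) had adjusted p-values between 0.615 and 0.916. The mouse reads of Fgfr3, 1721 in all, were few beside its 105893 human reads from the tumour cells. Fgfr2 had 546 mouse against 1563 human reads and Fgfr1 12432 against 11045.

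Of 20 further feedback inhibitors tested, 1 passed with nintedanib exposure, where 0.6% of all mouse genes passed. Spred3, the third Spred gene, averaged 18.9 ± 3.89 in combination, 22.1 ± 5.43 in nintedanib, 40.1 ± 7.49 in alpelisib and 37.8 ± 7.03 in vehicle tumours. Its difference was −0.91 ± 0.18 with an adjusted p of 0.0233. Of 23 genes of ERK output tested, Epha2 passed, an ephrin receptor induced by ERK, with a difference of −1.48 ± 0.19 and an adjusted p of 0.00119. Its mouse reads, 673 in all against 27587 human reads, were few beside those of the tumour cells, and its call was lost when human carry-over was subtracted. Ier3 (0.92 ± 0.24, adjusted p = 0.097), Egr1 (−0.52 ± 0.17, 0.213) and Hbegf (−0.81 ± 0.26, 0.224), each an early target of ERK, did not pass. Mouse reads were few beside human reads for Egr1 (3046 against 50561) and Hbegf (1221 against 12834) too. Ier3 did rise in combination against vehicle, where it averaged 345 ± 54.8 in combination and 102 ± 30.4 in vehicle tumours (SD, n = 4 each), a difference of 1.80 ± 0.34 with an adjusted p of 0.023. It had 4216 mouse against 51605 human reads, and its adjusted p was 0.0827 with human carry-over subtracted, 0.174 without the 4 libraries rich in Rn45s and Lars2 and 0.442 with the endothelial covariate. Without Combination 3, Combination 4 or Vehicle 4 it was 0.0745, 0.0725 and 0.0516. The median over the 23 was −0.07, with 16 negative and 7 positive.

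Among 17 other receptor kinases, Tie1 of endothelial cells passed, with a difference of −1.11 ± 0.20 and an adjusted p of 0.0111, and it is also 1 of the 18 endothelial markers. Among 16 ligands tested, Angpt2, a ligand of the Tie2 receptor that is also on the tip cell list, averaged 95.8 ± 23.2 in combination, 90.4 ± 29.2 in nintedanib, 285 ± 109 in alpelisib and 263 ± 104 in vehicle tumours, a difference of −1.50 ± 0.24 with an adjusted p of 0.00521. Among 19 genes of the Ras to ERK cascade, Rasgrp3, a Ras activator of endothelial cells, passed at −1.08 ± 0.23 with an adjusted p of 0.0295. Of all mouse genes, 0.6% passed with nintedanib exposure. The other genes named from these lists by their p did not pass. Of these, Kit, the receptor for stem cell factor, gave −0.72 ± 0.19 (adjusted p = 0.116), and Pdgfb, the ligand by which endothelial cells recruit pericytes, gave −0.58 ± 0.16 (adjusted p = 0.124). Egfr, Ddr2, Pgf, Figf, Map2k2 and Mapk3 had differences between 0.32 and 0.89, Plcg1 had −0.30, and the feedback inhibitors Socs3, Ptpn1 and Cblb had 0.28, 0.25 and 0.29, with adjusted p-values between 0.392 and 0.743. Of these genes that did not pass, human reads outnumbered mouse reads most in Egfr, with 1206 mouse against 27571 human reads. Next were Map2k2 (4031 against 25040) and Plcg1 (3724 against 21499). The medians were −0.03 over the 17 kinases, 0.03 over the 16 ligands and −0.03 over the 19 cascade genes. Without single libraries, Flt4, Epha2, Tie1 and Angpt2 stayed under the threshold in all 17 fits, Flt1 and Spred3 in 12 and Rasgrp3 in 7. Flt1 lost its call without Combination 2 or 4 or Alpelisib 2, 3 or 4, and Spred3 without Combination 3 or 4, Alpelisib 2 or 3 or Vehicle 1. Rasgrp3 lost it without any 1 of the combination libraries, Nintedanib responder 1, Alpelisib 2 or 3, or Vehicle 1, 2 or 3. Without the 4 libraries rich in Rn45s and Lars2 none of these 7 pathway genes stayed under it, and none did with the endothelial covariate. With human carry-over subtracted, Flt4, Spred3, Tie1 and Angpt2 stayed under it, and Flt1, Rasgrp3 and Epha2 did not.

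**Figure D4:**
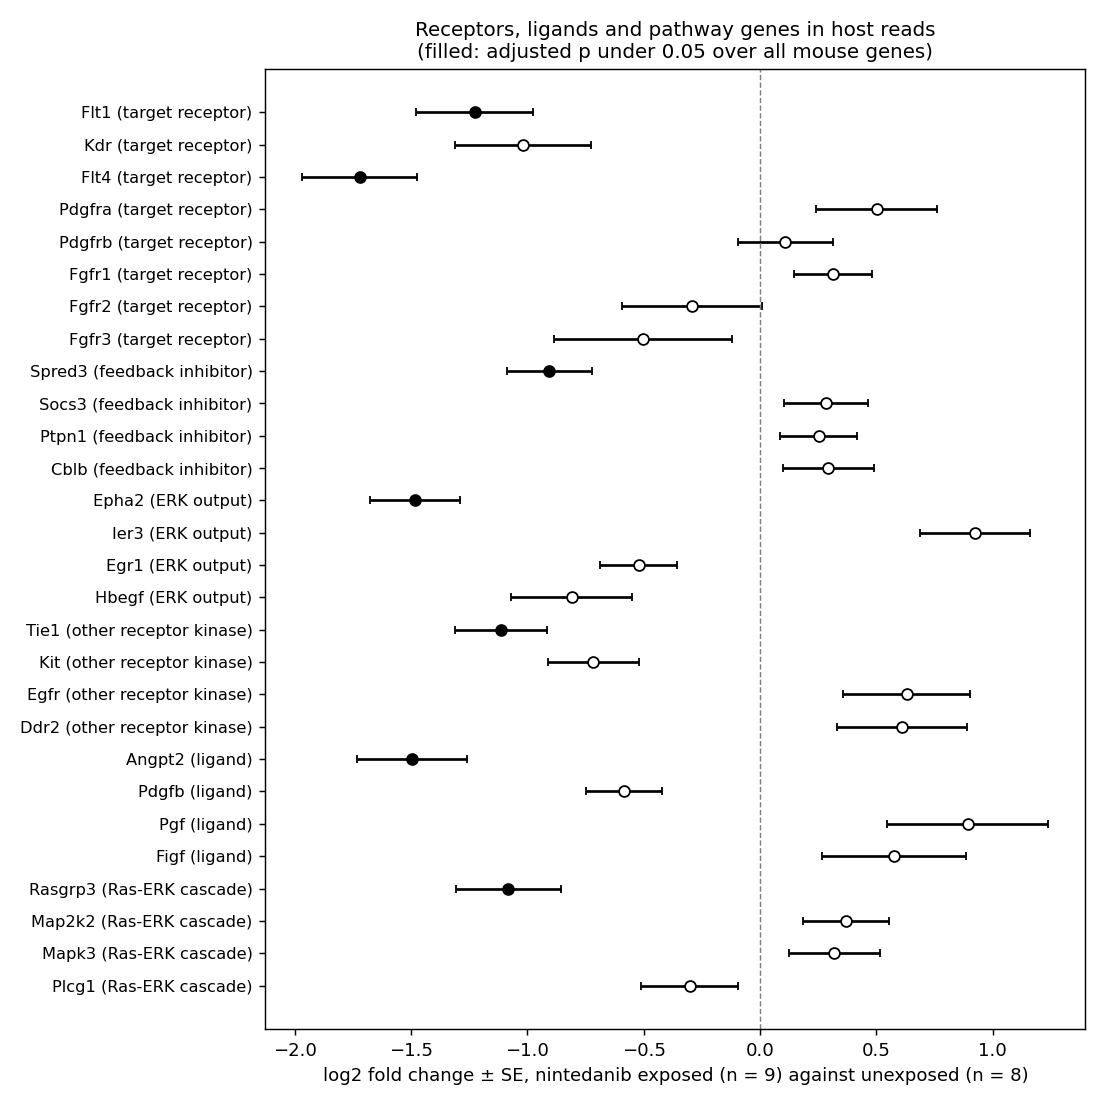
Log2 fold change ± SE in nintedanib exposed (n = 9) against unexposed (n = 8) tumours for the receptors that nintedanib blocks and for up to 4 genes of each other pathway list, filled where the adjusted p is under 0.05. The filled points, Flt4, Flt1, Spred3, Epha2, Tie1, Angpt2 and Rasgrp3, all lie below 0, between −1.72 and −0.91.

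Because human and mouse reads were mapped separately, a read from a conserved stretch of a human transcript can be counted for the mouse gene as well. Spry4 had 801 mouse and 312 human reads over the 17 libraries, or 257 mouse reads per 100 human reads, Etv5 had 405 per 100 and Spry1 167 per 100. Spry2 had 45.1, Dusp6 44.96, Spred1 23.7 and Spred2 7.65 mouse reads per 100 human reads. For comparison, 19 keratin and epithelial genes that the tumour cells express had a median of 3.16 per 100, with a range from 0.0351 (Krt18) to 31.1 (Krt14). At that median ratio, human reads would account for 1.23% of the mouse reads of Spry4, 0.78% of Etv5, 1.90% of Spry1, 7.00% of Spry2, 7.03% of Dusp6, 13.3% of Spred1 and 41.3% of Spred2. For Spry4 the share differed between libraries, with 1.81% to 6.67% in combination, 1.496% to 6.64% in nintedanib, 0.527% to 8.53% in alpelisib and 0.329% to 1.10% in vehicle tumours, the 8.53% being Alpelisib 1. Mouse host cells express some of these epithelial genes too, so the list gives a scale and not a rate for any 1 gene.

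Where human reads outnumbered mouse reads, the mouse value also followed the human value from tumour to tumour. Over the 17 libraries Pearson's r between mouse and human log2(normalized count + 1) was 0.86 for Spred1 (permutation p = 3e-05), 0.81 for Spred2 (permutation p = 4e-05), 0.80 for Spry2 (permutation p = 0.00023) and 0.67 for Dusp6 (permutation p = 0.00361), and Spearman's rho was 0.75, 0.75, 0.81 and 0.63, with permutation p-values of 0.00089, 0.00068, 0.00022 and 0.0077. Adjusted over the 8 relations computed, the p-values of r were 0.00016, 0.00016, 0.000613 and 0.00722. Without the 2 libraries farthest from the median of the human value, r was 0.73, 0.70, 0.82 and 0.69. Spry1 had r = 0.49 (permutation p = 0.0482, adjusted 0.0771) and rho = 0.53 (permutation p = 0.0297, adjusted 0.0475), with r = 0.37 without those 2 libraries. Etv5 had r = −0.18 (permutation p = 0.479) and rho = −0.24 (permutation p = 0.361), and r = −0.08 without them. These permutations ran across treatments. With the treatment means taken out and libraries permuted within treatments, which was added after the data were seen, r was 0.85 for Spred1 (permutation p = 0.0007), 0.85 for Spred2 (permutation p = 6e-05), 0.76 for Spry2 (permutation p = 0.00562) and 0.80 for Dusp6 (permutation p = 0.00081), or 0.00189, 0.00042, 0.00983 and 0.00189 adjusted over 7 genes. It was 0.43 for Spry1 (permutation p = 0.157), 0.07 for Etv5 (permutation p = 0.843) and 0.07 for Spry4 (permutation p = 0.811). The part of carry-over in these relations was not tested.

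Because mouse Spry4 differed with nintedanib exposure, its relation was taken within exposed and unexposed tumours, a split chosen after the values were seen. Alpelisib 1, an unexposed tumour, lay within the exposed range. Within the 9 exposed tumours r was 0.46 (exact permutation p = 0.218) and rho 0.45 (exact permutation p = 0.23), and within the 8 unexposed tumours r was −0.34 (exact permutation p = 0.496) and rho 0.10 (exact permutation p = 0.84). Without the 2 farthest libraries r was 0.35 in the exposed and 0.40 in the unexposed tumours. Human SPRY4 averaged 13.03 ± 8.56 normalized counts in combination, 22.0 ± 21.5 in nintedanib, 19.1 ± 10.99 in alpelisib and 17.4 ± 10.01 in vehicle tumours (SD), from 4 to 61 reads per library. Its difference with nintedanib exposure was −0.23 ± 0.38, with a 95% interval from −1.03 to 0.58 and an adjusted p of 0.988 over 14533 human genes. That interval does not reach the −1.90 of mouse Spry4, and no test was made between the species.

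None of the 7 human genes passed with nintedanib exposure in limma, edgeR, limma-voom or DESeq2. In limma, where 0% of all human genes passed, the largest difference of the 7 was that of ETV5 at −0.39 ± 0.20 (adjusted p = 0.928), and none had an unadjusted p under 0.05. When human reads were subtracted from every mouse gene at the list's median ratio, Spry4 kept between 8.57 and 28.2 normalized counts in combination, 8.20 and 23.7 in nintedanib, 14.2 and 72.1 in alpelisib and 70.8 and 104 in vehicle tumours. Its difference with nintedanib exposure was then −1.92 ± 0.34 with an adjusted p of 0.0299, while combination against vehicle had an adjusted p of 0.0538 and nintedanib against vehicle 0.178. Spred2 was reduced to between 5.10 and 40.2 in combination, 7.96 and 32.1 in nintedanib, 8.79 and 22.8 in alpelisib and 32.3 and 44.8 in vehicle tumours.

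**Figure D5:**
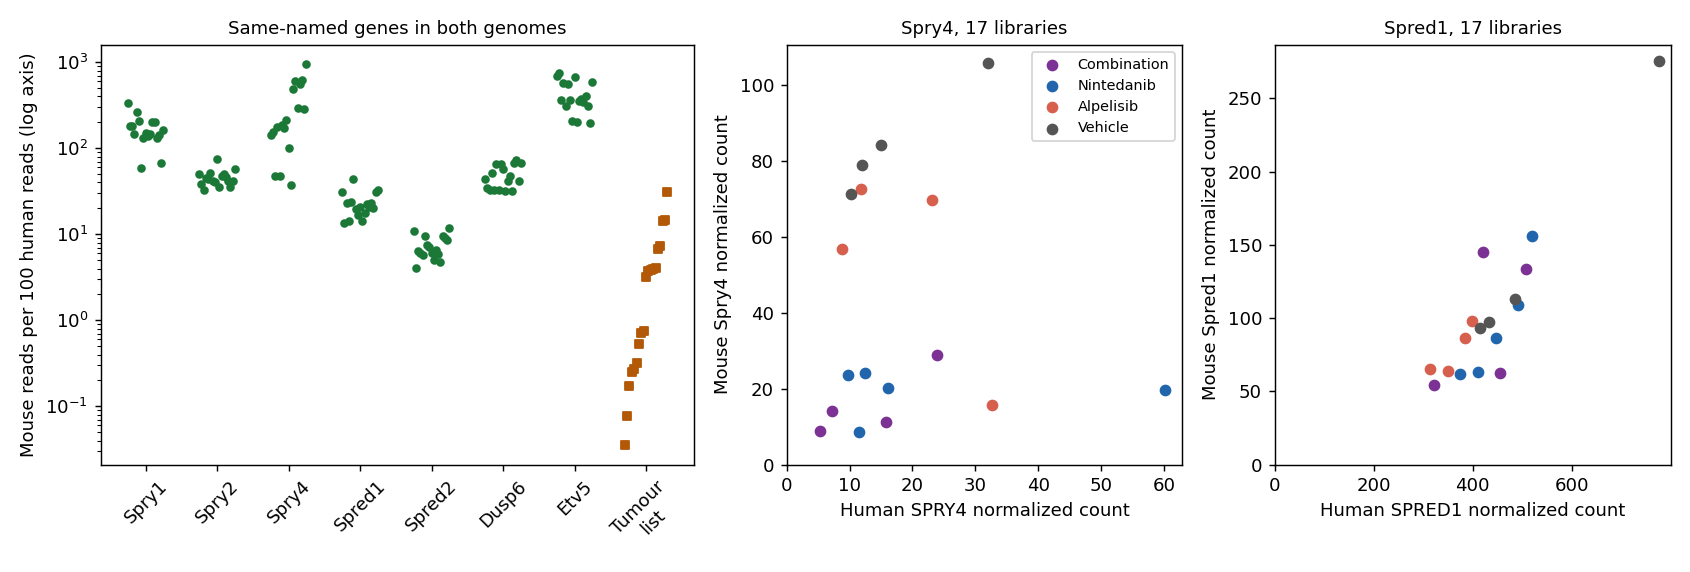
Left, mouse reads per 100 human reads of the 7 same-named genes, 1 point per library on a log axis, beside 19 epithelial genes that the tumour expresses; centre and right, mouse against human normalized counts of Spry4 and of Spred1 in the 17 libraries, coloured by group. Over all libraries Spry4 has 257 mouse reads per 100 human reads and Spred2 7.65, and mouse and human Spred1 vary together (r = 0.86).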

How the data were processed

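RNA of 17 xenograft tumours was sequenced as 75-bp paired-end reads from TruSeq v2 libraries, per the labels' protocols. Per the submitters' processing notes the authors used Bowtie, TopHat and DESeq2 with the builds hg19 and mm10. Which read counter, annotation and strandedness applied is not given in the sources used here. What was deposited is a normalized signal per gene, which the authors obtained by scaling read counts per library; dividing each column by its smallest step gave whole reads for all values within 0.001, with a largest distance of 0.000302 (mouse).

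Genes averaging 10 normalized counts or more (11831 of 23337 mouse and 14533 of 23368 human) were log2-transformed with a pseudocount of 1 and fitted with limma 3.58.1 (limma-trend, R 4.3.3), with 1 mean for each of 5 groups and the 5 nintedanib libraries weighted equally. Of 9 contrasts, 1 (alpelisib exposed against unexposed) was added after the data were seen. The p-values were Benjamini-Hochberg adjusted over all tested genes of a contrast, two-sided, with a threshold of 0.05. Alternatives were TMM scaling, edgeR 4.0.16, limma-voom and DESeq2 1.42.0 on the recovered reads, other pseudocounts and filters, covariates, and leaving out libraries. Mouse and human values were correlated with permutation tests (100000 resamples, or all orders for fewer than 10 libraries; scipy 1.17.1). Intervals cover the spread between libraries, and low read counts add counting error. The fit was tested on simulated data.

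The genes and gene lists were chosen with earlier results of these data known. Named were the 7 genes, all receptors that nintedanib blocks, up to 4 genes with the smallest p of each pathway list in nintedanib exposed against unexposed tumours, and the 2 genes most correlated with each of the 7. The replicate numbers gave no pairing, since libraries sharing a number deviated together (correlation over 0.1) in 4 of 21 pairs and libraries with unlike numbers in 23 of 63. Over all 136 pairs of libraries, none was a copy of another (chi-square per gene of at least 14.8). Sequences were not used here.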

Additional observations from a re-analysis of the deposited data

Results flagged for a closer look

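In 28 sets of values, the 7 genes in each of 4 groups with the 5 nintedanib libraries as 1 group (a grouping chosen after the data were seen), 6 had 1 library far from the others of its group, where chance gives about 1 in 20. Spry4 was 8.47 in Nintedanib non-responder 2, against 19.6 to 24.2 in the other 4 nintedanib libraries. Spry1 was 188 in Nintedanib responder 1, against 61.6 to 94.0 in the others, and Etv5 was 126 in Nintedanib responder 2, against 81.9 to 89.5. In the vehicle group, Spred1 was 276 in Vehicle 3, against 93.5 to 113, and Spred2 was 71.2 in the same library, against 49.5 to 49.7. Human SPRED1 and SPRED2 were also highest of the vehicle group in that library, at 776 and 730 normalized counts. Spry2 was 86.2 in Vehicle 4, against 67.5 to 69.8 in the other vehicle libraries.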

How the results depend on the processing

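Spry4 kept its sign under every alternative that tested it in combination against vehicle, nintedanib against vehicle, combination against alpelisib and nintedanib exposed against unexposed, with and without the replicate block. Its call, and that of Spry1 with alpelisib exposure, came and went by setting, and the cause was not tested, apart from fewer samples where libraries were left out. Depth limits Spry4, with as few as 7 reads in a library, and the number of libraries limits the comparison of 3 responders with 2 non-responders. Leaving out 1 library left some groups with 2 or 3 libraries, or 1 in the non-responders, assumed to vary like the others.

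With TMM scaling, the genes called among the 7 were 0 in nintedanib against vehicle. With pseudocount 0.5, the genes called among the 7 were 0 in nintedanib against vehicle. Without a filter on low values, the genes called among the 7 were 0 in nintedanib against vehicle, and those among all mouse genes were 10 in nintedanib against vehicle, 47 in combination against vehicle, 1 in combination against nintedanib and 0 in alpelisib exposed against unexposed. With a filter at a mean of 50, which removes Spry4, the genes called among the 7 were 0 in nintedanib against vehicle, 0 in combination against vehicle and 0 in nintedanib exposed against unexposed, and those among all mouse genes were 7 in nintedanib against vehicle, 60 in combination against vehicle, 0 in combination against alpelisib and 42 in nintedanib exposed against unexposed. With the replicate number as a block, the genes called among the 7 were 0 in nintedanib against vehicle, and those among all mouse genes were 10 in nintedanib against vehicle, 46 in combination against vehicle, 0 in combination against alpelisib and 0 in alpelisib exposed against unexposed. With the Rn45s and Lars2 share as a covariate, the genes called among the 7 were 0 in nintedanib against vehicle, 2 in combination against vehicle and 1 in alpelisib exposed against unexposed, and those among all mouse genes were 306 in combination against vehicle, 0 in combination against alpelisib and 56 in alpelisib exposed against unexposed. Without the 4 libraries over 40% Rn45s and Lars2, the genes called among the 7 were 0 in nintedanib against vehicle, 0 in combination against vehicle and 0 in nintedanib exposed against unexposed, and those among all mouse genes were 2 in nintedanib against vehicle, 22 in combination against vehicle, 0 in combination against alpelisib, 3 in combination against nintedanib and 1 in nintedanib exposed against unexposed. With the endothelial marker level as a covariate, the genes called among the 7 were 0 in nintedanib against vehicle, 0 in combination against vehicle and 0 in nintedanib exposed against unexposed, and those among all mouse genes were 0 in nintedanib against vehicle, 3 in combination against vehicle, 0 in combination against alpelisib, 1 in combination against nintedanib and 0 in nintedanib exposed against unexposed. With human carry-over subtracted, the genes called among the 7 were 0 in nintedanib against vehicle and 0 in combination against vehicle, and those among all mouse genes were 4 in nintedanib against vehicle, 2 in alpelisib against vehicle, 21 in combination against vehicle, 35 in nintedanib exposed against unexposed and 0 in alpelisib exposed against unexposed. With DESeq2, the genes called among the 7 were 1 in combination against alpelisib and 1 in alpelisib exposed against unexposed, and those among all mouse genes were 93 in nintedanib against vehicle, 112 in alpelisib against vehicle, 473 in combination against vehicle, 26 in combination against alpelisib, 30 in combination against nintedanib, 254 in nintedanib exposed against unexposed, 2 in nintedanib responders against non-responders and 282 in alpelisib exposed against unexposed. Without Vehicle 3 and Alpelisib 1 (added after the data were seen), the genes called among the 7 were 1 in combination against alpelisib, and those among all mouse genes were 33 in nintedanib against vehicle, 22 in combination against alpelisib, 3 in combination against nintedanib, 140 in nintedanib exposed against unexposed and 38 in alpelisib exposed against unexposed. With edgeR quasi-likelihood, those among all mouse genes were 0 in combination against alpelisib. With limma-voom, those among all mouse genes were 0 in combination against alpelisib.

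The differences that changed sign had not passed the threshold. Etv5 in nintedanib against vehicle was 0.051 with the endothelial covariate. Dusp6 in alpelisib against vehicle was 0.13 without the 4 libraries rich in Rn45s. Spry2 in combination against vehicle was 0.0032 with the Rn45s and Lars2 share, 0.089 without the 4 libraries rich in Rn45s and 0.091 with the endothelial covariate. Spred1 in combination against vehicle was 0.0046 with the endothelial covariate. Spry1 in combination against alpelisib was 0.034 with the Rn45s and Lars2 share and 0.12 without the 4 libraries rich in Rn45s. Spred2 in combination against alpelisib was 0.0066 with pseudocount 5, 0.14 with edgeR quasi-likelihood, 0.029 with limma-voom, 0.14 with DESeq2, 0.089 with the Rn45s and Lars2 share, 0.10 with the endothelial covariate, 0.11 with carry-over subtracted and 0.15 without Vehicle 3 and Alpelisib 1. Spred1 in combination against nintedanib was −0.0092 with TMM scaling, −0.12 with the Rn45s and Lars2 share, −0.0092 without the 4 libraries rich in Rn45s and −0.046 with carry-over subtracted. Spred2 in combination against nintedanib was 0.082 with edgeR quasi-likelihood, 0.082 with DESeq2, 0.11 with the replicate block, 0.059 with the Rn45s and Lars2 share and 0.10 without the 4 libraries rich in Rn45s. Spry1 in nintedanib exposed against unexposed was −0.017 with the replicate block and −0.089 without Vehicle 3 and Alpelisib 1. Spred1 in nintedanib exposed against unexposed was 0.072 without the 4 libraries rich in Rn45s and 0.31 with the endothelial covariate. Etv5 in nintedanib exposed against unexposed was −0.0029 with TMM scaling, −0.0068 with edgeR quasi-likelihood, −0.015 with limma-voom, −0.012 with DESeq2, −0.013 with the replicate block, −0.0069 without the 4 libraries rich in Rn45s and −0.12 without Vehicle 3 and Alpelisib 1. Spry1 in departure from additivity was 0.090 without the 4 libraries rich in Rn45s. Spry4 in departure from additivity was −0.10 without Vehicle 3 and Alpelisib 1.

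Over the fits that left out 1 library each, the number called was 0 to 1 of the 7 in nintedanib against vehicle, 4 to 33 of all mouse genes in nintedanib against vehicle, 0 to 1 of all mouse genes in alpelisib against vehicle, 0 to 1 of the 7 in combination against vehicle, 5 to 130 of all mouse genes in combination against vehicle, 0 to 1 of the 7 in combination against alpelisib. It was also 0 to 13 of all mouse genes in combination against alpelisib, 0 to 4 of all mouse genes in combination against nintedanib, 40 to 115 of all mouse genes in nintedanib exposed against unexposed, 0 to 1 of the 7 in alpelisib exposed against unexposed, 0 to 43 of all mouse genes in alpelisib exposed against unexposed. The range crossed 0 for Spry1 in nintedanib against vehicle (−0.021 to 0.38), Dusp6 in alpelisib against vehicle (−0.19 to 0.029), Etv5 in alpelisib against vehicle (−0.22 to 0.041), Spry2 in combination against vehicle (−0.16 to 0.12), Spry1 in combination against alpelisib (−0.34 to 0.071), Spred1 in combination against alpelisib (−0.0056 to 0.46), Spred2 in combination against alpelisib (−0.28 to 0.34), Spred1 in combination against nintedanib (−0.22 to 0.25), Spred2 in combination against nintedanib (−0.29 to 0.32). It did so too for Spry1 in nintedanib exposed against unexposed (−0.086 to 0.15), Spred1 in nintedanib exposed against unexposed (−0.27 to 0.025), Etv5 in nintedanib exposed against unexposed (−0.076 to 0.059), Dusp6 in departure from additivity (−0.22 to 0.0041), Spry1 in nintedanib responders against non-responders (−0.27 to 0.53), Spry2 in nintedanib responders against non-responders (−0.30 to 0.058), Spry4 in nintedanib responders against non-responders (−0.14 to 1.23), Spred2 in nintedanib responders against non-responders (−0.22 to 0.69), Etv5 in nintedanib responders against non-responders (−0.067 to 0.24).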
